A study of Mus musculus with 8 samples.

Results

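miR-21a was described from its 2 mature products, mmu-miR-21a-5p and mmu-miR-21a-3p (miR-21a-5p and miR-21a-3p from here on), which were taken by name from a table of 1978 mature microRNAs (miRNAs). The table came from small RNA libraries of CD8+ T cells from the spleens of C57BL/6 mice, a common inbred strain. Neonatal mice aged 5 to 7 days and adult mice aged 12 weeks gave 4 libraries each, and no treatment or genetic change is labelled in either group. Cells were enriched on magnetic beads (the protocol lists CD8a and CD4 beads), and the labels do not say whether a library came from a single animal or a pool. The comparison of the ages asked how the level of miR-21a, its rank and its spread differ between neonatal and adult cells.

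miRNAs are short RNAs that are cut from a hairpin and guide repression of messenger RNAs through bases 2 to 8, the seed. Of the hairpin's arms, the guide is loaded into the silencing complex and the passenger is mostly degraded. In miR-21a the 5p arm is the guide. miR-21 is known to be induced when T cells are activated, and Pdcd4, a restraint on translation, is among its best-known targets.

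The mature sequences are shown here because the seed sets the targets and because miR-21b and miR-21c are close enough in sequence to share reads with miR-21a-5p. Capitals mark the seed, and the sequences are those of RefSeq on GRCm38.p6.
miR-21a-5p: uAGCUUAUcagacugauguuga
miR-21a-3p: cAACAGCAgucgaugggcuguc
miR-21b: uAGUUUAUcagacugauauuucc
miR-21c: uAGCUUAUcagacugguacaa

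The miR-21a hairpin lies on the minus strand of chromosome 11 (GRCm38, 86584067 to 86584158), inside the 3′ untranslated part of exon 12 of Vmp1, a gene of autophagy, in the GENCODE annotation. miR-21a-5p covers 86584120 to 86584141 and miR-21a-3p 86584082 to 86584103. In the predicted fold of the 92-base hairpin (-46.2 kcal/mol), 19 of the 22 bases of miR-21a-5p paired with miR-21a-3p. miR-21c (chromosome 8) was the only other miRNA of the RefSeq table with the seed of miR-21a-5p. It matched miR-21a-5p over the first 15 bases and differed at 5 of the 21 compared (A16G, G18A, U19C, U20A and G21A, counted from the 5′ end, with the base of miR-21a-5p first). miR-21b (chromosome 3) differed within the seed (C4U) and at 3 further positions.

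Library totals were 1454421 to 2416060 counts in neonatal and 1281032 to 2606630 counts in adult samples. A single count came to 0.414 to 0.688 CPM (the usual depth-scaled count) in neonatal and 0.384 to 0.781 CPM in adult libraries, and the counting error of miR-21a-5p was at most 0.483% (1 SD). Levels are given as a share of all miRNA counts or as CPM scaled by TMM, a method that aligns libraries on the trimmed mean of their ratios. The neonatal libraries had TMM factors of 1.16 to 1.3 and the adult ones 0.788 to 0.812, so TMM scaling lowered every neonatal level beside the adult ones. The table holds no messenger RNA, so CD8a itself could not be looked up. The 2 blood cell products of miR-142a took 0.501 to 1.13% of neonatal and 0.856 to 2.08% of adult counts, and 3 lymphocyte miRNAs (miR-150-5p, miR-342-3p and miR-181a-5p) took 7.64 to 8.99% of neonatal and 9.22 to 16.03% of adult counts. Counts from a bulk preparation cannot tell fewer cells that hold a miRNA from less of it per cell, and p-values measure the spread between these libraries, which may be technical.

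miR-21a-5p was among the most abundant miRNAs at both ages. Between the ages it was not called with TMM scaling or in unpaired tests, and it was called higher in neonatal cells in a paired fit on library totals that was chosen after seeing the data. It took 5.53%, 6.99%, 4.66% and 8.11% of all miRNA counts in neonatal libraries 1 to 4, from 80415, 147925, 82379 and 195958 counts. In adult libraries 1 to 4 it took 3.35%, 6.58%, 3.78% and 4.99%, from 42890, 119323, 98476 and 122582 counts. The groups overlapped, since neonatal libraries 1 and 3 were below adult library 2. The mean share was 6.32% ± 1.53 in neonatal and 4.68% ± 1.45 in adult libraries (SD, n = 4 each), a difference of 1.65 percentage points that did not pass (two-sided exact permutation over 70 divisions of the libraries, p = 0.171). Within same-numbered libraries, however, the neonatal share was the higher in 4 of 4 pairs, by 2.18, 0.411, 0.882 and 3.12 percentage points. With 4 pairs an exact sign-flip test cannot go below p = 0.125, which is the value it gave.

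On the TMM scale the order of the group means turned. The neonatal libraries, 1 to 4, held 42910, 56431, 35892 and 70074 CPM of miR-21a-5p. The adult libraries, 1 to 4, held 41652, 83520, 46816 and 61514 CPM. Neonatal and adult ranges again overlapped along most of their length, and the lowest library of all was neonatal and the highest adult. Within same-numbered libraries, 1 to 4, the log2 ratio of neonatal to adult was 0.04, -0.57, -0.38 and 0.19, so the pairs went both ways. Mean levels were 51327 ± 15128 CPM for neonatal cells and 58376 ± 18756 CPM for adult cells (SD, n = 4 each). The log2 fold change, neonatal over adult, was -0.19 ± 0.24 (SE), with a 95% interval of -0.71 to 0.34, that is 0.611-fold to 1.26-fold (edgeR's quasi-likelihood test, Benjamini-Hochberg adjusted p = 0.523). That interval holds no change as well as changes in both directions, and the libraries did not tell these apart.

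**Figure D1:**
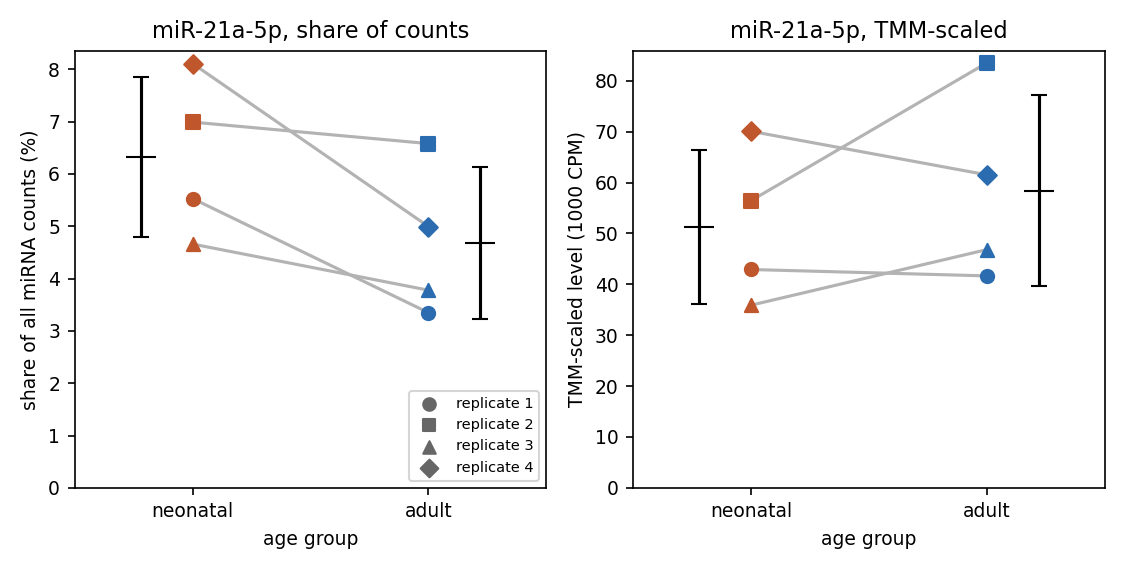
miR-21a-5p in each library as a share of all miRNA counts (left, %) and as TMM-scaled level (right, in units of 1000 CPM), with neonatal libraries left of adult ones; grey lines join libraries with the same replicate number, and black bars give mean ± SD (n = 4). The neonatal share is higher in 4 of 4 pairs (mean 6.32% in neonatal against 4.68% in adult libraries). The TMM-scaled means lie the other way (51327 CPM in neonatal against 58376 CPM in adult libraries), and the pairs on that scale go both ways. The libraries overlap on both scales.

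Most miRNAs past the filter were called where miR-21a-5p was not. Of 375 tested in the same fit, 237 (63.2%) passed, and 44 of the 375 had a fold change closer to 0 than that of miR-21a-5p. Of the 18 miRNAs with a mean of at least 10000 CPM, 5 were without a call, miR-21a-5p among them. Its sign depended on the scale. With library totals in place of TMM, which moved the median miRNA up by 0.63 on the log2 scale, its log2 fold change was 0.44 ± 0.22 (edgeR's adjusted p = 0.101), in a fit that called 67.7% of the tested miRNAs and 49.6% higher. The mature sequence has a GC content of 36.4%, against a median of 47.8% for 314 tested miRNAs with a sequence. Correcting for GC gave a change of 0.21 ± 0.18 (edgeR's adjusted p = 0.336). Without adult library 2, the highest, it was 0.06 on the TMM scale.

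The replicate number, which both groups carry in the labels, narrowed the error. With the number as a replicate block, the TMM-scaled change was -0.18 ± 0.13 (edgeR's adjusted p = 0.215), with a 95% interval of -0.45 to 0.09. That fit called 70.7% of the tested miRNAs, 33.3% higher and 37.3% lower. With the block and library totals together, a setting chosen after seeing the data, miR-21a-5p was called higher in neonatal cells, at 0.45 ± 0.11 (edgeR's adjusted p = 0.000702), where 76.5% of the tested miRNAs were called and 54.7% were called higher. No other setting run called it.

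**Figure D2:**
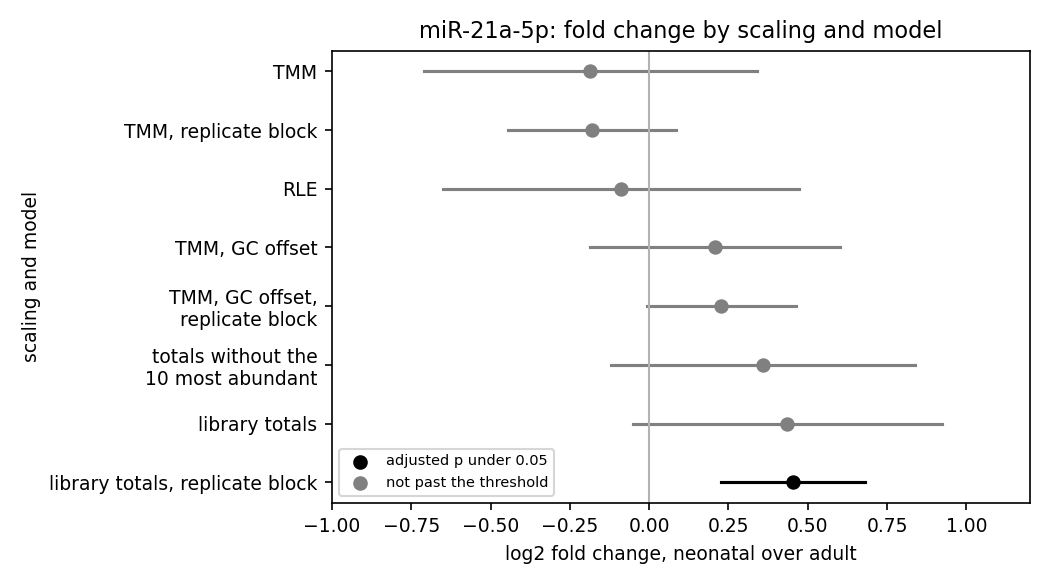
Log2 fold change of miR-21a-5p, neonatal over adult, with 95% intervals, under 8 combinations of library scaling and model in edgeR. The value is -0.19 with TMM and 0.44 with library totals, and the interval leaves 0 only with totals and the replicate block (0.45, drawn in black).

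miR-21a-5p was among the miRNAs that varied most between libraries of the same group. Its SD of log2 level within a group was 0.44, against a median of 0.19 over the 18 miRNAs of at least 10000 CPM, none of which had a larger one, although let-7i-5p came close (0.43). Over the 159 miRNAs of at least 100 CPM the median was 0.23, and 17 varied more, miR-30a-5p (0.46) and miR-340-5p (0.53) among them. The deviations had the same sign in libraries with the same replicate number. From the mean log2 level of its group, miR-21a-5p deviated by -0.21, 0.18, -0.47 and 0.50 in neonatal libraries 1 to 4. It deviated by -0.43, 0.57, -0.27 and 0.13 in adult libraries 1 to 4. Libraries 1 and 3 were thus low and libraries 2 and 4 high at both ages. Their order differed, with neonatal library 3 and adult library 1 the lowest, and neonatal library 4 and adult library 2 the highest. In edgeR's fit the biological coefficient of variation of miR-21a-5p was 0.255, and with the replicate block it was 0.142. The median of the 159 miRNAs was 0.182 without the block and 0.141 with it. Over the 18 abundant miRNAs the median was 0.170 without the block and 0.131 with it. Only 1 of these 18 had a larger value than miR-21a-5p in the fit with the block. What the replicate numbers stand for is not labelled, and their part in this spread was not tested beyond the block.

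By reads, miR-21a-5p was the sixth miRNA of the table in the mean of both groups. It was placed 6, 4, 6 and 3 within neonatal libraries 1 to 4, and placed 6, 5, 6 and 6 within adult libraries 1 to 4. Kits of this kind ligate adapters with sequence preferences, so these are ranks of reads rather than of molecules. Next above it in the mean were miR-92a-3p, of the miR-17 to miR-92a cluster that promotes proliferation, then miR-150-5p, a miRNA of mature lymphocytes, and let-7a-5p, a repressor of growth genes. Next below were miR-26a-5p, miR-25-3p and miR-27b-3p. miR-21a-5p had fewer reads than miR-92a-3p in 7 of 8 libraries, than miR-150-5p in 6 and than let-7a-5p in 5. It had more than miR-150-5p in 2 of 4 neonatal and 0 of 4 adult libraries. For let-7a-5p this held in 2 of 4 neonatal and 1 of 4 adult libraries. The place against let-7a-5p was thus not settled, nor was that against miR-150-5p in neonatal libraries. miR-21a-5p had more reads than each of the 3 below it in 8 of 8 libraries.

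Ratios to these neighbours within a library do not depend on scaling. The ratio to miR-26a-5p was 1.31 ± 0.30 in neonatal and 0.47 ± 0.25 in adult libraries on the log2 scale (SD, n = 4 each; two-sided exact permutation p = 0.0286, the lowest value possible, and 0.171 adjusted over the 6 neighbours). The ratio to miR-150-5p was -0.13 ± 0.49 in neonatal and -1.28 ± 0.83 in adult libraries (exact permutation p = 0.0857, adjusted 0.171). That to miR-27b-3p was 1.26 ± 0.24 for neonatal and 0.58 ± 0.25 for adult libraries (exact permutation p = 0.0571, adjusted 0.171). The other 3 ratios had an unadjusted exact p of 0.371 to 0.629. No ratio passed after adjustment, but with 4 libraries against 4 a single ratio at the lowest possible p adjusts to 0.171 and could not pass alone. Of the 6 neighbours, miR-150-5p, let-7a-5p, miR-26a-5p and miR-27b-3p were themselves called lower in neonatal cells, though with library totals let-7a-5p (0.20) and miR-27b-3p (-0.22) were not called and let-7a-5p turned in sign. miR-92a-3p was called lower with the TMM-scaled replicate block (-0.40 ± 0.12, edgeR's adjusted p = 0.00574, against 0.0853 without it), and miR-25-3p was called higher with library totals (0.79, edgeR's adjusted p = 6.07e-05).

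**Figure D3:**
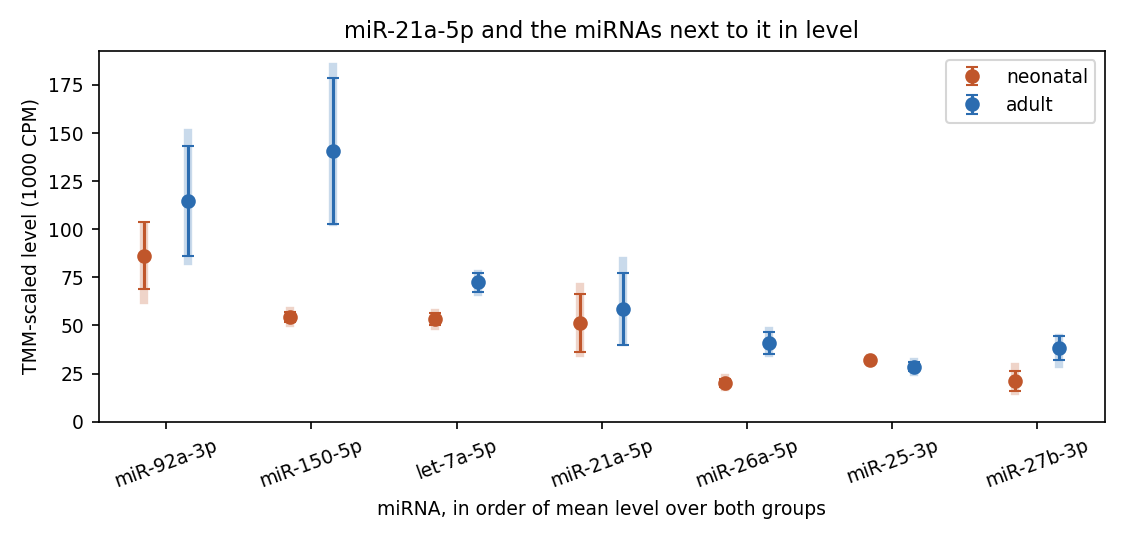
TMM-scaled level (in units of 1000 CPM) of miR-21a-5p and the 3 miRNAs next above and below it in mean level, neonatal left of adult for each; points are means, capped bars SD and pale bars the range of 4 libraries. miR-21a-5p overlaps between the ages (51327 CPM in neonatal against 58376 CPM in adult libraries), and its bars are wider in relation to its level than those of let-7a-5p or miR-25-3p.

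The miRNAs whose pattern over the 8 libraries was most like that of miR-21a-5p were sought among 158 tested miRNAs of at least 100 CPM. The measure of likeness was the SD of the log2 ratio to miR-21a-5p, which does not depend on scaling. It was smallest for miR-30a-5p (0.084), followed by miR-192-5p (0.17), miR-106b-5p (0.18), miR-340-5p (0.21) and let-7i-5p (0.22), against a median of 0.64 over the 158. For miR-30a-5p, neonatal libraries 1 to 4 held 616, 738, 508 and 1021 CPM, and adult libraries 1 to 4 held 640, 1296, 659 and 945 CPM. Within each age it was thus low in libraries 1 and 3 and high in libraries 2 and 4, as miR-21a-5p was. A shared pattern follows from the choice by this measure. All 8 values come from the same libraries as those of miR-21a-5p and share their depth and preparation.

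The sequences of these 5 are given to compare them with miR-21a-5p, with the seed in capitals (RefSeq, GRCm38.p6).
miR-30a-5p: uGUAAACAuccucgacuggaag
miR-192-5p: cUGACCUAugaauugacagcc
miR-106b-5p: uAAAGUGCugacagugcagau
miR-340-5p: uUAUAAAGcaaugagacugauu
let-7i-5p: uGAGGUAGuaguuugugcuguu

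None of the 5 has the seed of miR-21a-5p, and their genes lie on chromosomes 1, 19, 5, 11 and 10 in that order. Their GC content ran from 27.3% in miR-340-5p to 47.6% in miR-192-5p, on both sides of the 36.4% of miR-21a-5p. None was called between the ages, with log2 fold changes of -0.30 for miR-30a-5p to 0.08 for let-7i-5p (edgeR's adjusted p of 0.325 to 0.778). Because the 5 were chosen for a steady ratio to miR-21a-5p over both ages, changes near its own follow from the choice. let-7i-5p was called higher with library totals (0.71, edgeR's adjusted p = 0.0158).

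**Figure D4:**
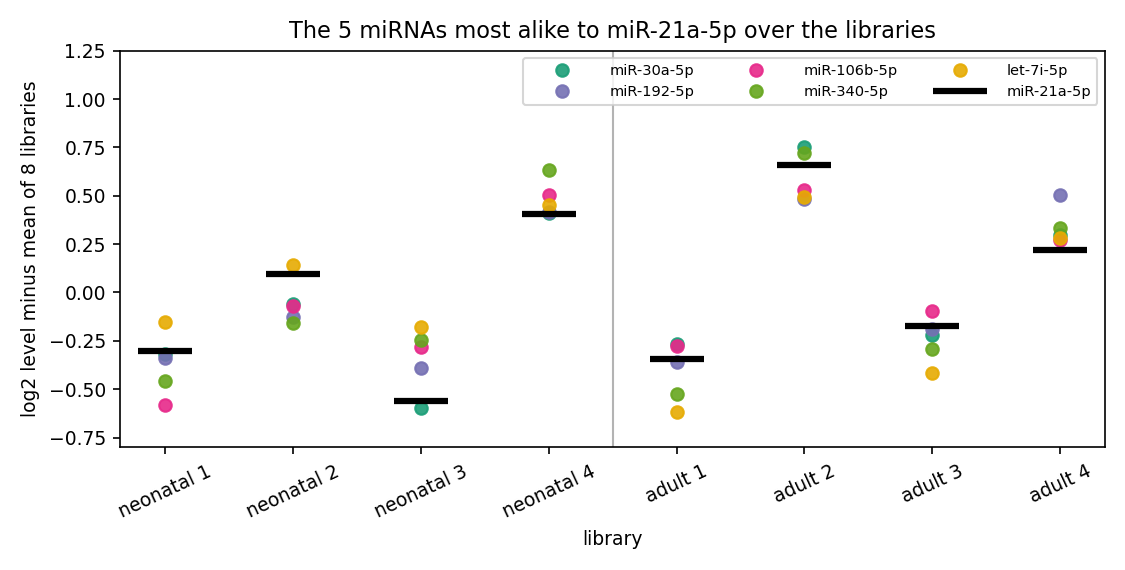
Log2 TMM-scaled level minus its mean over the 8 libraries, for miR-21a-5p (black bars) and the 5 miRNAs most like it (coloured points), in the neonatal and then the adult libraries. Within each age, libraries 1 and 3 are low and 2 and 4 high for miR-21a-5p, and the points of miR-30a-5p lie closest to its bars (SD of the log2 ratio 0.084).

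Nearly all reads of the hairpin came from the 5p arm. Neonatal libraries 1 to 4 held 3, 11, 5 and 6 counts of miR-21a-3p, and adult libraries 1 to 4 held 5, 3, 9 and 9. The groups overlapped, and both reached down to 3 counts, the floor set by a count of 0. Summed over libraries, 25 neonatal counts stood beside 506677 of the 5p arm, and 26 adult counts beside 383271, which is 20267 reads of miR-21a-5p per read of miR-21a-3p in neonatal and 14741 in adult libraries. Per 10000 reads of the hairpin, the 3p arm had 0.507 ± 0.203 in neonatal and 0.766 ± 0.386 in adult libraries (SD, n = 4 each). The widest exact (Clopper-Pearson) 95% interval, 0.378 to 2.72 in adult library 1, held the mean of both groups, while those of neonatal library 4 (0.112 to 0.666) and adult library 2 (0.0518 to 0.735) did not reach the adult mean. The log2 ratio of 5p to 3p was 14.22 ± 0.56 in neonatal and 13.75 ± 0.92 in adult libraries. The difference of 0.48, at 3 to 11 counts of the 3p arm per library, did not pass (two-sided exact permutation p = 0.429). miR-21a-3p had too few counts for the filter. In the fit without a filter its log2 fold change was -0.51 ± 0.59 (edgeR's adjusted p = 0.511).

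The imbalance of the arms was large beside that of other hairpins. Over all libraries the 3p arm held 0.00573% of the hairpin's counts. The lesser arm held a median of 1.42% in 108 hairpins with at least 1000 counts and both arms listed. Hairpins that share a mature arm with another hairpin were left out, so these are not all of the abundant ones. In 13 of the 108 the lesser arm had a smaller share, and 8 of those had no count for it. Among the 15 of the 108 with at least 100000 counts, let-7g, of the let-7 family, was the only hairpin with a smaller share (0.000521%). The next above miR-21a held 0.0745%.

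miR-21b and miR-21c were counted at a tiny part of the level of miR-21a-5p. Per 10000 reads of miR-21a-5p, miR-21b had 1.151 ± 0.57 in neonatal and 2.27 ± 0.61 in adult libraries, and miR-21c had 1.29 ± 0.46 in neonatal and 2.15 ± 0.69 in adult libraries (SD, n = 4 each). The ranges overlapped for both, and neither ratio passed (two-sided exact permutation p = 0.0857 for each). The level of miR-21b was 6.45 ± 4.56 CPM at the neonatal age and 12.5 ± 2.44 CPM at the adult age, a log2 change of -0.90 ± 0.44 that did not pass (edgeR's adjusted p = 0.0898). It was called lower with the replicate block (-0.99 ± 0.35, edgeR's adjusted p = 0.0136). The log2 fold change of miR-21c was -0.68 ± 0.38 (edgeR's adjusted p = 0.137). With library totals the changes were -0.30 for miR-21b (edgeR's adjusted p = 0.555) and -0.07 for miR-21c (0.879). As deposited, 7 of 8 libraries had counts that were not whole among the 3 entries. In 6 of those 7 the sum of miR-21a-5p, miR-21b and miR-21c was whole within 0.02. Reads that could belong to more than 1 of the 3 therefore leave the values of miR-21b and miR-21c uncertain. Both together came to at most 0.0560% of miR-21a-5p in any library.

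miR-21a-5p was set beside 11 other miRNAs that follow T cell activation, a list taken over with earlier results of these data known. Of these 12 miRNAs, 5 were higher and 6 lower in neonatal cells, where 29.1% and 34.1% of all miRNAs tested were. miR-21a-5p was the member without a call, and the most abundant by reads. The next, miR-146a-5p, which restrains signalling to NF-kB, had 1600 ± 237 CPM at the neonatal age and 11648 ± 506 CPM at the adult age (log2 fold change -2.86 ± 0.15). miR-155-5p, which promotes effector responses, had 376 ± 27.0 CPM in neonatal cells and 1266 ± 172 CPM in adult cells (-1.75 ± 0.15). The pair miR-221-3p (-1.64) and miR-222-3p (-1.01) was lower as well. So were miR-146b-5p (-0.66) and miR-96-5p (-0.64), with miR-96 from the cluster of miR-182 and miR-183. Of the higher ones, miR-210-3p, induced by low oxygen, changed by 2.65 and miR-31-5p by 1.87, with miR-183-5p at 1.60 and miR-182-5p at 0.81. The fifth was miR-132-3p, at 1.28. The ages were apart in every library for 11 of the 12, against 57.3% of all miRNAs tested. The median log2 fold change of the list was -0.41, against -0.05 over all tested; with library totals its sign turned (0.21, against 0.58 over all), and the members went both ways. With library totals 5 of the 12 were higher and 3 lower, where 49.6% of all tested were higher and 18.1% lower, and calls were lost for miR-96-5p, miR-146b-5p and miR-222-3p. miR-96-5p, at 15 to 48 counts, lost its call in 15 of 19 alternative settings. Among these were RLE scaling, DESeq2, the GC offset, the fit without a filter and leaving out any single library other than adult library 1.

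**Figure D5:**
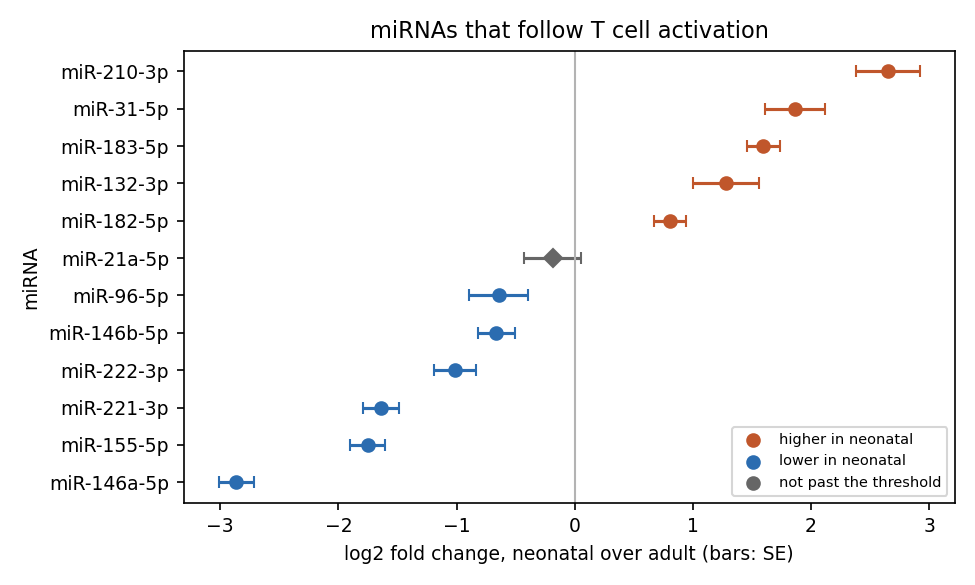
Log2 fold change, neonatal over adult, with its SE, of 12 miRNAs that follow T cell activation (edgeR, TMM scaling). miR-21a-5p (diamond, -0.19) lies between 5 miRNAs called higher and 6 called lower in neonatal cells.

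Markers of several other cell types were higher in neonatal libraries, at levels far under that of miR-21a-5p. With TMM scaling, both blood cell miRNAs and 2 of the 3 lymphocyte ones were called lower, where 34.1% of all miRNAs tested were. The 5 erythroid miRNAs took 0.0356 to 0.0998% of neonatal and 0.00949 to 0.0202% of adult counts, and all 3 of those tested were called higher, where 29.1% of all miRNAs tested were. The 2 endothelial miRNAs took 0.0162 to 0.0185% of neonatal and 0.00375 to 0.00607% of adult counts (2 of 2 higher). For the 5 stromal ones the shares were 0.0132 to 0.0219% of neonatal and 0.00292 to 0.00656% of adult counts (3 of 3 tested higher). The liver miRNA miR-122-5p took 0.0863 to 0.205% of neonatal and 0.0193 to 0.0314% of adult counts, and was called higher. The 2 myeloid miRNAs had at most 20 counts in a library, and neither was tested. The part of such cells in the level of miR-21a-5p was not tested.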

How the data were processed

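The authors deposited estimated counts in 1 table, with an entry for each mature miRNA on each of its precursors and no normalization. The submitters' processing notes name mm10 as the genome build; for the aligner, counter and miRNA annotation, nothing is given in the sources used here. The kit was NEBNext Small RNA, with size selection of the inserts, per the labels' protocols. Of the non-zero values, 71.4% were whole within 0.001. Counts were summed over precursors and rounded, leaving 1025 miRNAs with a count.

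The filter (filterByExpr, minimum count 10, total 15) kept 375 miRNAs. All 8 libraries entered edgeR 4.0.16 in R 4.3.3 (quasi-likelihood F test, TMM scaling, robust dispersions, age as the term), with Benjamini-Hochberg adjustment at 0.05. The fit was tested on counts simulated with a single dispersion and no replicate pairing, which does not test the choice of scaling. The SE is the fold change divided by the root of F. miR-21a-3p did not pass the filter, so it was fitted without one, and the ratio of the arms (0.5 added to each count) was tested by exact permutation in place of limma 3.58.1 over hairpins. Log2 levels for the spread used a pseudocount of 0.5. RNAfold 2.7.2 folded the hairpin. RefSeq gave a mature sequence for 1679 of the 1978 names.

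Alternatives were RLE scaling, library totals, totals without the 10 most abundant miRNAs, other filters, DESeq2 1.42.0, limma-voom, an offset for GC content, the replicate block and leaving out each library. Named miRNAs were the members, miR-21b and miR-21c, the 3 next above and below in level, the 5 most alike over libraries and the activation list. Members and lists were chosen with earlier results of these data known; let-7g was named after its value was seen. As a check of pairing, each library's deviations from its group mean were correlated across miRNAs with those of its same-numbered partner (r = 0.387, 0.331, 0.241 and 0.382). Every value exceeds 0.1, and the numbers were taken to pair the samples, although unlike-numbered libraries reached 0.463. No library duplicated another of its group (chi-square per degree of freedom 15.7 to 362). Reads carry no molecular identifiers, so intervals and floors describe counting error alone.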

Additional observations from a re-analysis of the deposited data

Results flagged for a closer look

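Of 58 groups of 4 libraries checked, 1 held a library far from the other 3, where chance gives about 1 in 20. miR-96-5p stood at 8.004 CPM in neonatal library 1, against 14.8 to 15.7 CPM in the other neonatal libraries. No group of miR-21a-5p or miR-21a-3p values was marked in this way.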

How the results depend on the processing

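miR-21a-5p was not called at -0.19, and its sign turned with library totals (0.44), totals without the 10 most abundant miRNAs (0.36), the GC offset (0.21) and the GC offset with the replicate block (0.23). It turned and passed with the replicate block and library totals (0.45), chosen after seeing the data. The cause was not tested. Leaving out a library gave -0.38 to 0.06 and no call (0.059 without adult library 2), and the other settings run (RLE, both filters, DESeq2, limma-voom, the replicate block) kept the direction without a call. miR-21a-3p turned to 0.010 with library totals and was called in no setting. A filter of at least 10 CPM in 4 libraries gave it no value. The difference in share (1.05 to 2.28 without a library) and in arm ratio (0.20 to 0.91) kept their direction. Neither passed in any setting. Without a library the exact permutation p was 0.114 to 0.343 for the share and 0.0857 to 0.743 for the arm ratio. The replicate block (-0.18) changed no call other than those of miR-21b and miR-92a-3p among the miRNAs named. The count of called miRNAs was 213 to 287 and that of the activation list 8 to 11. With library totals 73.2% of the called miRNAs were higher, in place of 46.0%. Depth limits miR-21a-3p, miR-21b and miR-21c, not miR-21a-5p.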
